A study of Mus musculus with 19 samples.

Results

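A set of 9 mouse genes, whose human counterparts carry the mutations of a polyglutamine disease or of a spinocerebellar ataxia (SCA), was followed through 3 brain regions (cerebellum, striatum and prefrontal cortex) of mice with the SCA17 knock-in (KI) and of wild-type (WT) mice. They were the rows of the deposited count table whose Ensembl identifier has a member's name in the GENCODE M21 annotation, namely *Atxn1*, *Atxn2*, *Atxn3*, *Atxn7*, *Atxn10*, *Atn1*, *Htt*, *Ttbk2* and *Fgf14*. These are 9 of 41128 genes counted, and all 9 passed the filter on low counts that left 16841 genes for testing. The mice were C57BL/6 and 3 months old, and the KI mice carry in their germline an expanded CAG tract in the endogenous *Tbp* gene, which encodes the TATA box-binding protein. The labels do not state whether the KI mice had 1 or 2 mutant alleles, and they name no further allele or treatment in either genotype. Per the paper's methods, the line was obtained by breeding heterozygous floxed mice to EIIa-Cre mice and their knock-in offspring to WT mice. The methods do not name the zygosity of the sequenced mice. RNA was sequenced in 19 libraries, with 3 WT and 4 KI libraries of the cerebellum and 3 of each genotype for the other 2 regions. Library totals ranged from 10639110 to 17431284 counts, and the markers of the labelled tissues were present. Purkinje cell markers were called higher in WT cerebellum than in both other regions for 6 of 6 genes and medium spiny neuron markers higher in WT striatum for 7 of 7. Cortical excitatory neuron markers were called higher in WT prefrontal cortex than in striatum for 6 of 6 genes and than in cerebellum for 5 of 6. Choroid plexus markers stood apart, since their summed level in CPM (counts scaled to the library total) was 1904 in cerebellum WT replicate 1 and 4796 in cerebellum KI replicate 3 against 5.10 to 14.5 in the other 5 cerebellum libraries, and it was 1509 to 8757 in the 6 striatum libraries. Cortical excitatory neuron markers summed to 43.5 to 254 CPM in WT striatum and medium spiny neuron markers to 256 to 736 CPM in WT prefrontal cortex. Their part in the regional differences below was not tested.

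In polyglutamine diseases a run of CAG codons in the coding sequence lengthens beyond a limit, and the encoded protein, with its long glutamine stretch, misfolds and forms inclusions in neurons. The genes concerned are expressed in most tissues, yet each disease harms its own set of neurons. *Atxn1*, *Atxn2*, *Atxn3* and *Atxn7* encode the ataxins of SCA1, SCA2, SCA3 and SCA7, *Atn1* the atrophin of dentatorubral-pallidoluysian atrophy, and *Htt* the huntingtin of Huntington disease. The remaining genes reach ataxia by other routes. *ATXN10* carries a pentanucleotide repeat within an intron in SCA10, *TTBK2*, a tau tubulin kinase needed for the formation of cilia, has truncating mutations in SCA11, and *FGF14*, a fibroblast growth factor homologue that stays inside the cell and binds sodium channels, is mutated in SCA27.

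Runs of glutamine codons in the mouse genes are shown because they set the members beside *Tbp*, the gene mutated in this model. A run was taken wherever it lay in the frame and was not matched to the place of the repeat in the human disease gene. The run of *Atxn1* lay at codons 444 to 446 of 799 and that of *Atxn2* at codons 1129 to 1131 of 1286. Each line gives, 5′ to 3′ on the coding strand, the longest run of glutamine codons (CAG or CAA) in the annotated reading frame in capitals with 4 codons on either side in lower case, read from the GENCODE M21 transcripts of GRCm38.
*Tbp*, chr17:15504379-15504441, plus strand: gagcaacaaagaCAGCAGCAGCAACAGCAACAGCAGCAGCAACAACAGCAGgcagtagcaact
*Htt*, chr5:34761946-34761990, plus strand: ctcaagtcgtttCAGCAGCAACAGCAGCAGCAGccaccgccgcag
*Atxn3*, chr12:101926551-101932978, minus strand, over 2 exons: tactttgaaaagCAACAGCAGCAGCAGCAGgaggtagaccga
*Atxn7*, chr14:14013144-14013182, plus strand: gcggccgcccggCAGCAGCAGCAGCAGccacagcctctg
*Atxn1*, chr13:45567068-45567100, minus strand: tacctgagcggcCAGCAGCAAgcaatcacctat
*Atxn2*, chr5:121810934-121810966, plus strand: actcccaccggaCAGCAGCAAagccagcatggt
The WT mouse *Tbp* frame held 13 such codons in a row, of which 9 were CAG and 4 CAA, *Htt* held 7, *Atxn3* 6 (in 1 of its 3 complete annotated frames) and *Atxn7* 5, while *Atxn1* and *Atxn2* held 3 each. *Ttbk2* and *Fgf14* had at most 2 in a row and *Atxn10* no run longer than 1. The reading frames are those of the reference strain, and the count table does not hold the sequence of any KI allele.

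The first question was how abundant each transcript is in the 3 regions of WT mice. Levels of different genes are compared as CPM per kb of annotated exon. *Atxn10* was the most abundant member by far, with 175 ± 5.86 CPM per kb in cerebellum, 169 ± 22.1 in striatum and 209 ± 19.6 in prefrontal cortex (SD, n = 3 each), which placed it at the 99.0, 98.7 and 99.1 percentile of 16733 genes with a known length. On this scale *Fgf14* came next in every region with 29.2 ± 1.61, 19.8 ± 0.614 and 12.5 ± 1.1 CPM per kb (SD, n = 3). In prefrontal cortex that place depends on the length used. The longest transcript has 6946 bases for *Atxn2* and 3608 for *Fgf14*, against 15689 and 4182 annotated exon bases. With the longest transcript as length, *Atxn2* stood above *Fgf14* in WT prefrontal cortex. *Atxn2*, an RNA-binding protein of translation and stress granules, and *Atn1*, a transcriptional corepressor, followed at 6.36 to 8.40 and 4.50 to 6.19 CPM per kb as regional means. The lower members lay near or below the median gene, which stood at 4.37, 4.26 and 4.35 CPM per kb in the same order of regions.

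At the lower end the order changed with the region. *Htt*, a large scaffold protein of vesicle transport, was at 1.85 ± 0.0633 CPM per kb in cerebellum, 1.1 ± 0.0801 in striatum and 1.35 ± 0.114 in prefrontal cortex (SD, n = 3), and on this scale it was the lowest member of striatum and of prefrontal cortex. *Atxn1*, which encodes a partner of the repressor Capicua, was the lowest in cerebellum at 1.76 ± 0.145 CPM per kb, where its libraries overlapped those of *Htt*, and ranked 6 of 9 in the other 2 regions at 3.32 ± 0.466 and 2.63 ± 0.205 (SD, n = 3). In WT cerebellum the neighbours *Ttbk2* and *Atxn7*, *Atxn7* and *Atxn3*, and *Htt* and *Atxn1* overlapped between libraries. *Atxn3* and *Atxn1* overlapped in striatum and prefrontal cortex. In prefrontal cortex *Atxn1* and *Ttbk2*, and *Ttbk2* and *Atxn7*, overlapped as well, so that these neighbours in the order were not apart by more than their spread. With the longest transcript in place of all annotated exon bases, *Htt* stood at 3.43 and *Atxn2* at 17.8 CPM per kb in WT cerebellum. On that scale *Ttbk2* and not *Htt* was the lowest member of striatum, at 1.68 against 2.03 CPM per kb, and of prefrontal cortex, at 2.48 against 2.5. Divided by the 7997 exonic bases that it does not share with *Cdan1* on the same strand, *Ttbk2* was at 2.34 CPM per kb in WT striatum. In WT prefrontal cortex it was at 3.46, so its place below *Htt* depends on the length used.

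**Figure D1:**
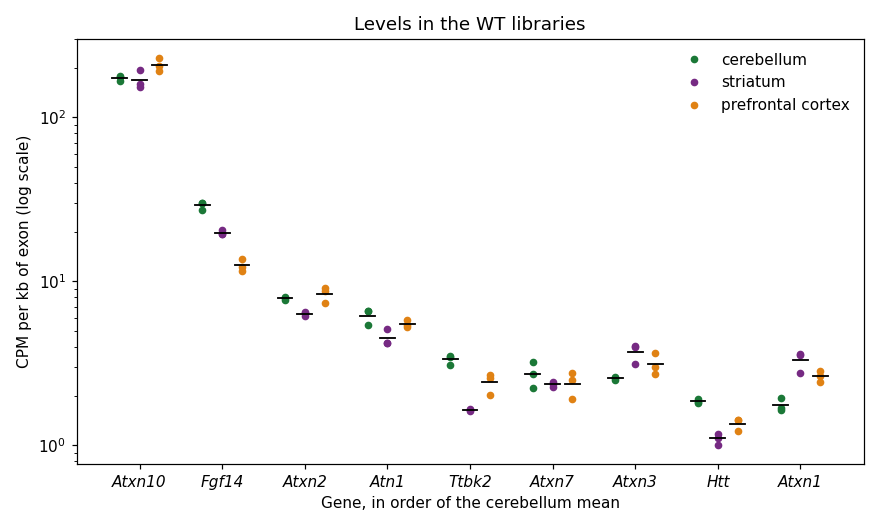
Level of each gene in the 3 WT libraries of each region, as CPM per kb of annotated exon on a log axis, with a point for each library and a line at the mean. *Atxn10* lies between 153 and 230 CPM per kb in all 9 libraries, *Fgf14* between 11.5 and 30.1, and the other 7 genes below 9.1.

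Between WT regions the members differed in both directions. Against striatum, 5 members were higher in cerebellum and 2 lower by the quasi-likelihood test of edgeR, adjusted after Benjamini and Hochberg over 16841 genes, while 27.8% of all genes were higher and 28.7% lower. Against prefrontal cortex 3 members were higher in cerebellum and 2 lower, beside 25.1% and 26.9% of all genes. In striatum against prefrontal cortex 2 members were higher and 3 lower, beside 14.0% and 16.4% of all genes. The median of the members' absolute log2 differences was 0.535, 0.284 and 0.306 in these 3 comparisons and that of all genes 0.554, 0.495 and 0.308.

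*Fgf14* had the widest regional range. Its 3 WT libraries were at 114, 126 and 126 CPM in cerebellum, 81.7, 81.2 and 85.9 in striatum and 50.8, 57.2 and 48.3 in prefrontal cortex. No libraries of 2 regions overlapped, and the order was cerebellum, striatum, prefrontal cortex. The log2 difference was 1.23 (SE 0.0911) between cerebellum and prefrontal cortex (edgeR adjusted p = 7.85e-09), 0.56 (SE 0.0896) between cerebellum and striatum (edgeR adjusted p = 5.23e-05) and 0.67 (SE 0.0907) between striatum and prefrontal cortex (edgeR adjusted p = 2.87e-05).

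*Ttbk2* was also highest in cerebellum, with 39.5, 35.1 and 39.8 CPM against 18.7, 19.0 and 18.4 in striatum and 30.4, 29.4 and 23.2 in prefrontal cortex. The cerebellum libraries lay above all others and the striatum libraries below all others. *Ttbk2* was 2.04-fold higher in cerebellum than in striatum (log2 1.03, SE 0.122, edgeR adjusted p = 1.80e-06) and 1.38-fold higher than in prefrontal cortex (log2 0.46, SE 0.120, edgeR adjusted p = 0.00385), and it was lower in striatum than in prefrontal cortex (log2 -0.57, SE 0.122, edgeR adjusted p = 0.00196). The gene shares 3409 of its 11406 exonic bases, 29.9%, with *Cdan1* on the same strand, so reads from these bases cannot be assigned to either gene with certainty. *Cdan1*, which encodes codanin-1, differed between WT regions by nearly the same amounts, with log2 1.06, 0.50 and -0.56 for cerebellum against striatum, cerebellum against prefrontal cortex and striatum against prefrontal cortex.

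*Htt* was at 47.0, 45.1 and 43.9 CPM in WT cerebellum, 27.0, 28.6 and 24.7 in striatum and 29.8, 34.6 and 34.6 in prefrontal cortex. Its cerebellum libraries lay above those of both other regions. The log2 difference was 0.76 (SE 0.117) against striatum (edgeR adjusted p = 3.48e-05) and 0.46 (SE 0.116) against prefrontal cortex (edgeR adjusted p = 0.00335). The striatum, the region that Huntington disease affects first in humans, held the lowest level of the 3, although the step from striatum to prefrontal cortex missed the threshold (log2 -0.30, SE 0.117, edgeR adjusted p = 0.0628). These levels are of bulk tissue with all its cell types, and do not give the level in the neurons that the disease harms.

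*Atxn1* and *Atxn3* ran the other way. *Atxn1* was at 26.8, 23.0 and 23.7 CPM in WT cerebellum, 50.5, 49.3 and 38.7 in striatum and 39.4, 36.9 and 33.7 in prefrontal cortex. The cerebellum, where SCA1 does most harm, had the lowest values of all 9 libraries. As for *Htt*, this bulk level does not give the level in the cells that the disease harms. The log2 difference of cerebellum was -0.91 (SE 0.122) from striatum (edgeR adjusted p = 6.79e-06) and -0.58 (SE 0.122) from prefrontal cortex (edgeR adjusted p = 7.01e-04). *Atxn3*, a deubiquitinating enzyme, was at 14.0, 13.5 and 14.2 CPM in cerebellum and 16.9, 21.6 and 21.9 in striatum, a log2 difference of -0.53 (SE 0.138, edgeR adjusted p = 0.00342). Its 14.7 to 19.7 CPM in prefrontal cortex were above cerebellum without passing the test (log2 -0.28, SE 0.138, edgeR adjusted p = 0.0963), but without prefrontal cortex WT replicate 2 the adjusted p was 0.0499.

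*Atxn2* was lowest in striatum, with 96.9, 101 and 102 CPM against 125, 126 and 120 in cerebellum (log2 0.31, SE 0.0751, edgeR adjusted p = 0.00202) and 143, 136 and 117 in prefrontal cortex (striatum against prefrontal cortex log2 -0.40, SE 0.0751, edgeR adjusted p = 5.90e-04). *Atn1* was higher in cerebellum than in striatum (log2 0.46, SE 0.118, edgeR adjusted p = 0.00323), with 24.8 to 30.5 CPM against 19.2 to 23.6. *Atn1* in striatum against prefrontal cortex had an edgeR adjusted p of 0.0720, which became 0.0340 without striatum WT replicate 3. *Atxn7*, a subunit of the SAGA chromatin complex, was the single member called in none of the 3 comparisons, with 17.9 to 25.6, 18.1 to 19.4 and 15.3 to 21.9 CPM in cerebellum, striatum and prefrontal cortex. Its largest log2 difference was 0.21 (95% confidence interval, CI, -0.13 to 0.55), between cerebellum and striatum.

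Some calls near the threshold rested on single libraries. *Atxn10* was 326 to 348 CPM in WT cerebellum and 370 to 445 in prefrontal cortex (log2 -0.25, SE 0.0938, edgeR adjusted p = 0.0312), and its adjusted p passed 0.05 without any of cerebellum WT replicates 1, 2 and 3 or prefrontal cortex WT replicate 1, at 0.0956, 0.0509, 0.0632 and 0.153. Its difference between striatum and prefrontal cortex (log2 -0.31, SE 0.0938, edgeR adjusted p = 0.0199) was lost without prefrontal cortex WT replicate 1 (0.106), striatum WT replicate 1 (0.126) or striatum WT replicate 2 (0.115). Without both cerebellum libraries with choroid plexus transcripts the adjusted p of *Atxn10* between cerebellum and prefrontal cortex was 0.110. *Atxn1* in striatum against prefrontal cortex (log2 0.33, SE 0.120, edgeR adjusted p = 0.0448) lost its call on omission of any of 9 of the 19 libraries, with adjusted p up to 0.151. These were prefrontal cortex WT replicates 2 (0.0891) and 3 (0.142), striatum WT replicates 1 (0.151) and 2 (0.131), cerebellum WT replicate 3 (0.0531) and cerebellum KI replicates 3 (0.0518) and 4 (0.0522), prefrontal cortex KI replicate 1 (0.0520) and striatum KI replicate 3 (0.0522), with 0.33 as the log2 difference in the last 5 of these omissions. For *Htt* in the same comparison the adjusted p was 0.0331 without cerebellum KI replicate 4 and 0.0449 without prefrontal cortex WT replicate 1. Without striatum WT replicate 1 or 2 the members called between striatum and prefrontal cortex were *Atxn2*, *Ttbk2* and *Fgf14*, 3 in place of 5.

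**Figure D2:**
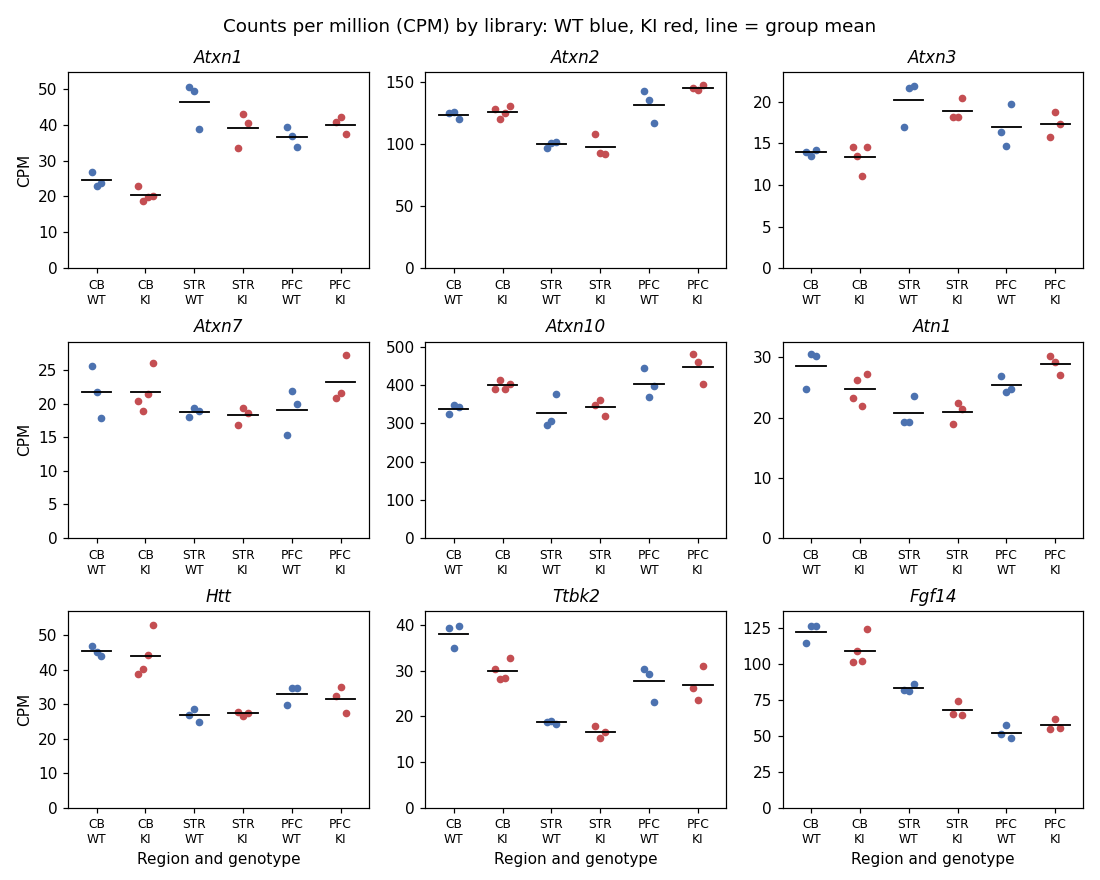
CPM of each gene in each of the 19 libraries by region and genotype, with WT in blue, KI in red and a line at the group mean; every axis starts at 0. CB stands for cerebellum, STR for striatum and PFC for prefrontal cortex. *Fgf14* is higher in cerebellum (114 to 126 CPM in WT) than in prefrontal cortex (48.3 to 57.2), *Atxn1* is lowest in cerebellum, and the KI and WT points of a region overlap for most genes.

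The second question was whether the mutant *Tbp* changes the transcripts of other ataxia and polyglutamine genes. The targeted gene itself was at 60.9, 52.5 and 62.0 CPM in WT and 52.2, 54.3, 48.5 and 56.6 in KI cerebellum, at 39.5, 49.6 and 44.0 in WT and 38.1, 42.0 and 42.3 in KI striatum, and at 36.6, 33.4 and 42.1 in WT and 33.2, 35.9 and 32.0 in KI prefrontal cortex. The genotypes overlapped in every region. The log2 change of *Tbp* was -0.14 (SE 0.0973), -0.12 (SE 0.105) and -0.15 (SE 0.106), and no region passed edgeR's quasi-likelihood test (adjusted p = 0.687, 0.844 and 0.921). Gene counts do not tell an expanded tract from a normal one, so this level does not check the genotype labels.

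None of the 9 members passed the test for KI against WT in any region. In cerebellum edgeR's quasi-likelihood test called 0 of 9 members beside 0.831% of all genes, in striatum 0 beside 0.582% and in prefrontal cortex 0 beside 0.107%. Averaged over the regions it called 0 members beside 1.35% of all genes. DESeq2 also called 0 members in each of these comparisons. Over the alternative fits in edgeR and DESeq2 listed below, the adjusted p ran from 0.0982 to 0.506 for *Ttbk2* in cerebellum. It ran from 0.0977 to 0.533 for *Atxn10* in cerebellum and from 0.0838 to 0.591 for *Fgf14* in striatum. With single libraries left out, the smallest edgeR adjusted p was 0.0716, for *Atxn10* averaged over the regions. At an unadjusted p under 0.05, edgeR gave 3 members in cerebellum beside 10.1% of all genes, 1 in striatum beside 8.12%, 0 in prefrontal cortex beside 5.93% and 3 on average over regions beside 12.3%. DESeq2 gave 3, 1, 0 and 2.

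The 27 confidence intervals, of 9 genes in 3 regions, show what size of change these data allow. The interval included 0 for 23 of them, and the others belonged to *Ttbk2*, *Atxn10* and *Atxn1* in cerebellum and *Fgf14* in striatum. The highest upper bound was 1.54-fold, for *Atxn7* in prefrontal cortex, and the lowest bound was 33.1% lower, for *Ttbk2* in cerebellum. *Htt* changed by log2 -0.04 (95% CI -0.27 to 0.19) in cerebellum, 0.03 (-0.22 to 0.28) in striatum and -0.06 (-0.31 to 0.19) in prefrontal cortex. *Atxn2* had the narrowest intervals, at 0.02 (-0.12 to 0.17), -0.03 (-0.19 to 0.13) and 0.14 (-0.02 to 0.30) in the same order, and *Atxn3* stood at -0.05 (-0.32 to 0.22), -0.09 (-0.38 to 0.20) and 0.03 (-0.26 to 0.32).

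In cerebellum, *Ttbk2* was at 39.5, 35.1 and 39.8 CPM in the WT and 30.3, 28.2, 28.5 and 32.9 CPM in the KI libraries. All KI libraries lay below all WT libraries. The log2 change was -0.35 (SE 0.111, 21.4% lower), with an unadjusted p of 0.00623 and an adjusted p of 0.211 by edgeR. *Cdan1*, which shares exonic bases with it, had a log2 change of -0.15 (SE 0.108, edgeR adjusted p = 0.720).

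*Atxn10* moved the other way in cerebellum, with 326, 348 and 342 CPM in WT and 390, 414, 391 and 404 in KI libraries. Every KI library was above every WT library. The log2 change was 0.24 (SE 0.0880, 18.0% higher), with an unadjusted p of 0.0148 and an adjusted p of 0.320 by edgeR. *Atxn1* was at 26.8, 23.0 and 23.7 CPM in WT and 22.9, 18.6, 19.8 and 20.2 in KI cerebellum, so that the highest KI and the lowest WT library nearly met, and its log2 change of -0.27 (SE 0.114) had an adjusted p of 0.428 by edgeR. These 3 members are those without overlap between genotypes in cerebellum, beside 12.3% of all genes.

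The other 6 members overlapped between genotypes in cerebellum. *Fgf14*, at 114, 126 and 126 CPM in WT and 101, 109, 102 and 124 in KI, had a log2 change of -0.16 (95% CI -0.34 to 0.01). *Atn1*, at 24.8, 30.5 and 30.2 CPM in WT and 23.3, 26.2, 22.0 and 27.2 in KI, had one of -0.21 (95% CI -0.44 to 0.02). In both genes 3 or more of the 4 KI libraries lay below the WT mean. *Htt* was at 38.8, 40.2, 44.4 and 52.9 CPM in the KI libraries, on both sides of the WT values of 47.0, 45.1 and 43.9. *Atxn7* lay between 18.9 and 26.1 CPM in KI and between 17.9 and 25.6 in WT cerebellum, a log2 change of -0.01 (95% CI -0.32 to 0.31).

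Several cell type marker lists differed between the genotypes in the same cerebellum libraries. The summed level of 6 Purkinje cell markers was 5889 to 6334 CPM in WT and 3567 to 5102 in KI, with 1 of 6 called lower, *Pcp2* (log2 -1.16, edgeR adjusted p = 1.96e-04). The summed level of 6 microglia markers was 75.7 to 78.3 CPM in WT and 106 to 151 in KI, with 4 of 6 called higher (*Cx3cr1*, *Csf1r*, *Aif1* and *C1qa*). In bulk tissue fewer cells of a type and less RNA per cell cannot be told apart, and the part of these shifts in the values of *Ttbk2*, *Atxn10* and *Atxn1* was not tested. Without cerebellum WT replicate 1 and KI replicate 3, which held the choroid plexus transcripts, 0 of 9 members had an unadjusted edgeR p under 0.05, and the log2 changes were -0.30 for *Ttbk2*, 0.22 for *Atxn10* and -0.18 for *Atxn1*.

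In striatum *Fgf14* was at 81.7, 81.2 and 85.9 CPM in the WT and 64.9, 74.3 and 64.0 in the KI libraries. The KI libraries were all below the WT libraries. The log2 change was -0.29 (SE 0.0901, 18.4% lower), with an unadjusted p of 0.00474 and an adjusted p of 0.258 by edgeR, and the unadjusted p stayed under 0.05 when any of the 19 libraries was left out. *Ttbk2*, with 18.7, 19.0 and 18.4 CPM in WT and 18.0, 15.2 and 16.5 in KI, was the other member whose libraries did not overlap, beside 14.1% of all genes (log2 -0.17, 95% CI -0.43 to 0.09). Medium spiny neuron markers summed to 8931 to 10346 CPM in WT and 4664 to 6794 in KI striatum with 0 of 7 called by edgeR and 1 of 7 at an unadjusted p under 0.05. Their part in the *Fgf14* value was not tested.

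In prefrontal cortex 7 of 9 members had a log2 change above 0 and their median was 0.13, against 0.00 over all genes. *Atxn2* was at 143, 136 and 117 CPM in WT and 145, 144 and 148 in KI, and *Atn1* at 26.9, 24.3 and 24.8 in WT and 30.2, 29.3 and 27.1 in KI. For both genes the KI libraries lay above the WT libraries, beside 8.69% of all genes without overlap. The smallest unadjusted p among the members was 0.0769, for *Atxn2*, with an edgeR adjusted p of 0.893. In the same comparison the log2 changes of 7 of 7 medium spiny neuron markers were above 0, with summed levels of 256 to 736 CPM in WT and 162 to 973 in KI, and those of 5 of 5 astrocyte markers (1608 to 2258 and 1258 to 1681 CPM) and 6 of 6 oligodendrocyte markers (4392 to 12330 and 3462 to 9538 CPM) were below 0. EdgeR called 0 markers of these 3 lists, with 0 at an unadjusted p under 0.05, and their part in the members' values was not tested. Medians in the other regions were -0.05 in cerebellum, with 7 of 9 members below 0, and -0.04 in striatum, with 6 of 9 below 0.

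Only *Ttbk2* was below 0 and only *Atxn10* above 0 in all 3 regions. The share of all genes with the same sign in all 3 regions was not counted, so these signs do not show a common effect. With each library left out, the change of *Ttbk2* in prefrontal cortex ran from -0.16 to 0.03, with the sign reversed in 3 of 19 fits. *Atxn10* had 0 reversed fits in each region. Averaged over the regions, *Atxn10* had a log2 change of 0.15 (SE 0.0530, unadjusted p = 0.0100, edgeR adjusted p = 0.212) and *Ttbk2* of -0.19 (SE 0.0683, unadjusted p = 0.0138, edgeR adjusted p = 0.249). *Fgf14* was at -0.11 on average (SE 0.0509, unadjusted p = 0.0492, edgeR adjusted p = 0.404). These averages treat the libraries of the 3 regions as independent.

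**Figure D3:**
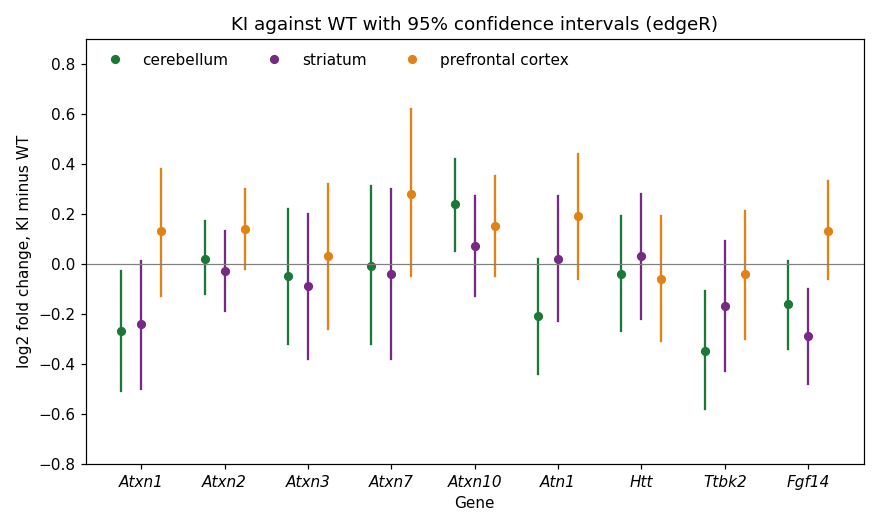
Log2 fold change of KI against WT for each gene in cerebellum, striatum and prefrontal cortex, with points at the edgeR estimate and bars for the 95% confidence interval. The estimates run from -0.35 for *Ttbk2* in cerebellum to 0.28 for *Atxn7* in prefrontal cortex, and 23 of 27 bars cross 0.

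The KI effect was then compared between regions. For cerebellum against striatum edgeR called 0 of 9 members beside 0.0119% of all genes, for cerebellum against prefrontal cortex 0 beside 0.0178%, and for striatum against prefrontal cortex 0 beside 0% of all genes. DESeq2 called 0 members as well. At an unadjusted p under 0.05 edgeR gave 0 members beside 6.69% of all genes, 3 beside 6.12% and 2 beside 4.41%, and DESeq2 gave 0, 3 and 2. The smallest value was that of *Fgf14*, whose KI effect in striatum was below that in prefrontal cortex by log2 -0.43 (SE 0.128, 95% CI -0.70 to -0.16, unadjusted p = 0.00406, edgeR adjusted p = 0.990). *Atxn1* (log2 -0.39, SE 0.166), *Atn1* (log2 -0.39, SE 0.160) and *Fgf14* (log2 -0.30, SE 0.123) were those with a lower KI effect in cerebellum than in prefrontal cortex at this level, with edgeR adjusted p of 0.751, 0.711 and 0.739.

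The other genes of polyglutamine disease and ataxia give the setting. Of 28 listed genes 27 were tested. EdgeR called 1 higher and 0 lower in cerebellum, 1 higher and 0 lower in striatum and 0 in prefrontal cortex. The shares of all genes called were 0.831%, 0.582% and 0.107%. At an unadjusted p under 0.05 edgeR gave 2 higher and 7 lower in cerebellum, 2 higher and 3 lower in striatum and 3 higher and 0 lower in prefrontal cortex. The shares of all genes at that level were 10.1%, 8.12% and 5.93%. DESeq2 called 1, 1 and 0 of the 27, with 9, 6 and 3 under 0.05 unadjusted. The gene called in cerebellum and in striatum was *Samd9l*.

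*Samd9l*, an interferon-induced gene mutated in an ataxia with blood cell deficiency, was at 3.98, 5.70 and 2.99 CPM in WT and 8.78, 8.92, 8.85 and 9.37 in KI cerebellum. In striatum it was at 3.61, 3.79 and 2.78 CPM in WT and 11.2, 9.31 and 14.1 in KI libraries. The KI libraries were above the WT libraries in both, with a log2 change of 1.08 (SE 0.209, edgeR adjusted p = 0.0154) and 1.76 (SE 0.225, edgeR adjusted p = 5.72e-04). The cerebellum call of *Samd9l* was lost without cerebellum WT replicate 1 (0.0681) or 3 (0.112) and without both libraries with choroid plexus transcripts (0.114). In prefrontal cortex *Samd9l* had a log2 change of 0.66 (SE 0.217, edgeR adjusted p = 0.620), and averaged over regions it passed, at 1.17 (SE 0.125, edgeR adjusted p = 3.18e-05).

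The next smallest p-values of this list in single regions missed the threshold. *Plekhg4* had a log2 change of -1.16 (SE 0.368) in cerebellum at 30 to 88 counts per library (edgeR adjusted p = 0.209), and *Itpr1*, the inositol trisphosphate receptor of SCA15, had -0.55 (SE 0.165) in striatum (edgeR adjusted p = 0.239) and -0.44 (SE 0.153) in cerebellum (edgeR adjusted p = 0.274). *Eef2*, a translation elongation factor, was at 0.21 (SE 0.0601) in prefrontal cortex (edgeR adjusted p = 0.502). Averaged over regions edgeR called 1 of the 27, beside 1.35% of all genes, and DESeq2 called 3. After *Samd9l* the smallest edgeR p was that of *Itpr1*, at log2 -0.35 (SE 0.0932, edgeR adjusted p = 0.0832). The median log2 change of the 27 genes was -0.14 in cerebellum, -0.03 in striatum and 0.01 in prefrontal cortex, against -0.05, -0.04 and 0.13 for the 9 members and 0.01, -0.01 and 0.00 for all genes.

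**Figure D4:**
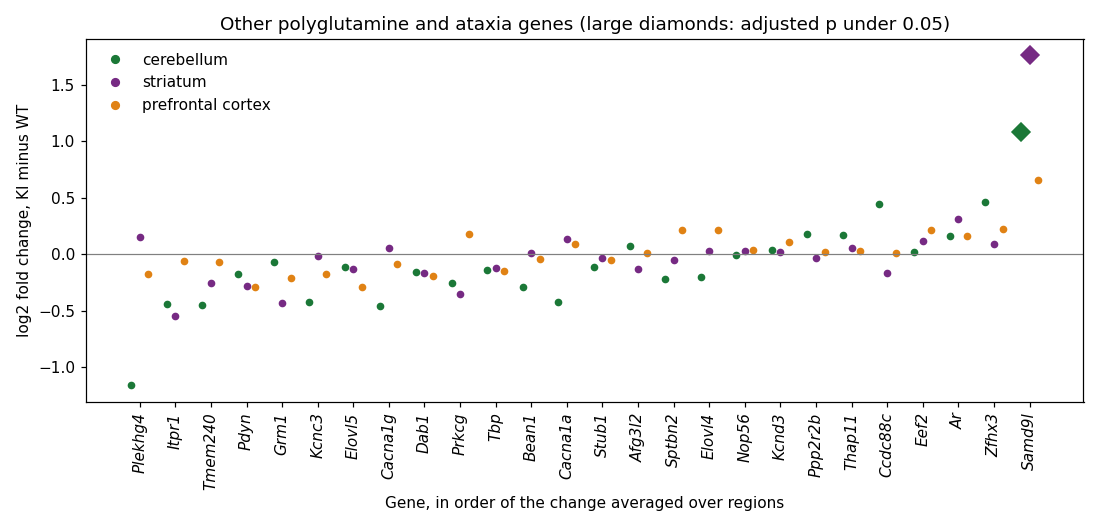
Log2 fold change of KI against WT for 26 other polyglutamine and ataxia genes in the 3 regions, ordered by the change averaged over regions, with large diamonds for genes with an edgeR adjusted p under 0.05. *Samd9l* in cerebellum (1.08) and striatum (1.76) are the diamonds, and *Fat2* is left out because it had at most 5 counts in the striatum and prefrontal cortex libraries.

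In WT mice some genes of this list differed between regions by more than any member did. *Fat2*, a protocadherin of granule cells, was higher in cerebellum than in striatum by log2 9.93 with 1 to 3 counts in the WT striatum libraries, so the size of this value is uncertain. *Pdyn*, the opioid precursor prodynorphin, was lower in cerebellum than in striatum by log2 -8.50 (SE 0.504) and *Cacna1g*, a calcium channel, was higher by 4.21 (SE 0.362). In all, 16 of 27 were higher in cerebellum than in striatum and 5 lower, 11 higher and 5 lower than in prefrontal cortex, and 5 higher and 9 lower in striatum than in prefrontal cortex. Of all genes 27.8% were higher and 28.7% lower in the first comparison. The shares were 25.1% and 26.9% in the second and 14.0% and 16.4% in the third.

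The paralogues of the members, relatives with similar sequence, were counted beside them. For KI against WT edgeR called 0 of 13 in each region, and at an unadjusted p under 0.05 it gave 3 lower in cerebellum, 0 in striatum and 0 in prefrontal cortex. DESeq2 gave the same counts, with 0 calls. By edgeR 10.1%, 8.12% and 5.93% of all genes were under 0.05 unadjusted in cerebellum, striatum and prefrontal cortex, and 0.831%, 0.582% and 0.107% were called. The smallest p-values were those of *Fgf11*, a relative of *Fgf14* (log2 -0.43, SE 0.184, edgeR adjusted p = 0.428 in cerebellum, and -0.37, SE 0.116, edgeR adjusted p = 0.166 on average). Between WT regions the *Fgf14* relatives differed in opposite directions, since *Fgf11* was higher in cerebellum than in prefrontal cortex by log2 1.67 (SE 0.207) and *Fgf13* lower by -2.62 (SE 0.135), with edgeR adjusted p of 3.63e-06 and 9.40e-11. *Atxn7l3*, a SAGA subunit, was lower in cerebellum than in prefrontal cortex by log2 -1.55 (SE 0.115), while its partner *Atxn7* was not called.

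Partners of the encoded proteins gave 0 of 19 calls in each region by edgeR, with 0, 2 and 2 of them at an unadjusted p under 0.05 in cerebellum, striatum and prefrontal cortex. DESeq2 called 0 as well, with 0, 2 and 1 at an unadjusted p under 0.05. The edgeR shares over all genes were 0.831%, 0.582% and 0.107% called and 10.1%, 8.12% and 5.93% under 0.05 unadjusted. *F8a*, which encodes the huntingtin-associated protein of that name, had the smallest p, at log2 0.40 (SE 0.114) in striatum (edgeR adjusted p = 0.195). *Cep164*, the centriolar protein that recruits the *Ttbk2* kinase, was at log2 -0.32 (SE 0.156, edgeR adjusted p = 0.515) in cerebellum. In WT mice *Cep164* was higher in cerebellum than in striatum by log2 1.00 (SE 0.172) and than in prefrontal cortex by 0.60 (SE 0.169), and *Rora*, the nuclear receptor that binds ataxin-1, was higher by 2.55 (SE 0.141) and 1.98 (SE 0.138), whereas *Atxn1* itself was lower. The sodium channels *Scn1a* and *Scn2a*, of the family that *Fgf14* binds, were higher in cerebellum than in striatum by log2 1.23 (SE 0.175) and 0.94 (SE 0.106).

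The genes with the pattern most like each member were found from the root mean square difference of centred log2 CPM over 19 libraries, which describes likeness and is no test. *Atxn2* had the closest companions, *Tcf25* (0.0671), *Pex5* (0.0787) and *Sars* (0.0863), against a median of 0.467 over all genes. *Atxn10* was followed by *Tpi1* (0.0946), *Stard7* (0.0965) and *Hars* (0.1), and *Htt* by *Uimc1* (0.107), *Rufy2* (0.120) and *Tnrc6b* (0.124). *Fgf14* was nearest to *Kcnt1* (0.109), *Stat5b* and *Rmnd5a* (0.136 each), and *Atxn1* to *Ttc19* (0.119), *Mark2* and *Srpk1* (0.130 each). *Atn1* was nearest to *Rad18* and *Gramd4* (0.115 each) and *Atxn3* to *Pja2*, *Tex10* and *Pdzd8* (0.131 to 0.133). *Atxn7* was nearest to *Fsd1l*, *Apba3* and *Gga3* (0.142 to 0.154), and *Ttbk2* to *Cdk16*, *Spata2* and *Ank2* (0.153 to 0.156). Among the members themselves the closest pair was *Atxn2* and *Atxn10*, at 0.150. Genes that vary little lie close together by this measure. The SD of the centred levels was 0.222 for *Atxn2* and 0.192 for *Atxn10*, against 0.464 for *Atxn1* and 0.476 for *Fgf14*.

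The member genes lie at scattered sites of the genome (GRCm38), with *Atxn7* (chr14:13961440-14107302, plus strand) and *Fgf14* (chr14:123977907-124677127, minus strand) on the same chromosome and likewise *Htt* (chr5:34761740-34912534, plus strand) and *Atxn2* (chr5:121711337-121816493, plus strand). Apart from *Ttbk2* (chr2:120732816-120850604, minus strand), members shared few exonic bases with counted genes, namely 2.7% of *Atxn1* with *Gmpr* and 0.631% of *Atxn2* with *Sh2b3*, both on the opposite strand, and 5.26% of *Fgf14* with *Gm28932*, which had 0 counts in all libraries. The library kit does not mark strand, so reads from opposite strands cannot be separated there. *Atn1* (chr6:124742544-124756524, minus strand) shares 84.2% of its exonic bases with *Gm45234* in GENCODE M21, a model that is not among the genes of the count table.

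The proximal promoters were searched because TBP binds the TATA box and the study examined SP1, a factor that binds GC-rich sites. RefSeq promoters of 300 bases on GRCm38.p6 were given for 7 members, with a second start for *Atxn2* and *Ttbk2*. The letters GGGCGG, the core of the SP1 site, stood on either strand in 8 of these 9 promoters, with at least 1 for each of the 7 members, and in 35.7% of all 32851 promoters. Both *Ttbk2* promoters overlap and show the same first site, so that site counts in each. Those 8 promoters held 57.3% to 74.3% G and C, and the share over all promoters was not matched for this. The letters TATAAA stood in the second promoter of *Atxn2* only, and in 13.6% of all promoters. A match shows the letters alone and not binding.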

How the data were processed

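The deposited counts are raw reads per Ensembl gene; per the labels the authors used bcl2fastq 2.17.1.14, STAR 2.5.2b, HTSeq and DESeq2 1.10.1 on GRCm38.p3, while the paper's methods also name Cufflinks and Cuffdiff. Libraries came from total RNA with a full-length cDNA kit, and the strand setting is not given in the sources used here. The authors also deposited a signal table, in which each library's counts were scaled by its own size factor, used here for levels as an alternative. Groups came from the labels. Per the labels 3 to 4 mice of each genotype were used, and the labels do not say which libraries share a mouse. P-values measure the spread between these libraries.

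Counts were filtered with filterByExpr over the 6 groups, scaled by TMM and fitted in edgeR 4.0.16 (R 4.3.3) with all 19 libraries in a single quasi-likelihood model of 13 residual degrees of freedom. P-values were adjusted by Benjamini-Hochberg over all 16841 tested genes, with a threshold of 0.05. Intervals are 95% and follow the model. Alternatives were DESeq2 1.42.0, its size factors in edgeR, 2 other filters, each region alone, blocks by replicate number and by genotype and number, a sex term (log2 of *Xist* over Y-linked counts), each library left out, longest transcripts as length and, chosen after seeing the data, both cerebellum libraries with choroid plexus transcripts left out and a block over striatum and prefrontal cortex. The script was tested on simulated data. Gene names came from GENCODE M21, which has 40254 of 41128 identifiers.

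Same-numbered striatum and prefrontal cortex libraries of a genotype deviated together (correlations 0.23 to 0.37 in all 6 pairs). Same-numbered WT and KI libraries did not (-0.25 to 0.17), nor did cerebellum libraries with the other regions. That sex term had the same sign in 6 of 6 such pairs of striatum and prefrontal cortex and the opposite sign in 3 of 6 pairs of cerebellum with either, so a number does not mark 1 mouse across all 3 regions. The main model holds no pairing and treats all libraries as independent, also where regions are compared or averaged. A block for the pairs of striatum and prefrontal cortex was run for comparisons of these regions, not for the averages. If such libraries share a mouse, the p-values of the averages count that mouse more than once. No pair of libraries agreed within sampling noise. The reads carry no molecular identifiers, so duplicate reads of 1 molecule cannot be told apart.

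Some listed items are not reported here and are left out of the lists' counts. The members and gene lists were chosen with earlier results of these data known. Named are all members and *Tbp*, list genes called in a KI comparison or with up to 3 of the smallest p-values, up to 3 of the largest WT differences, 3 genes of the nearest pattern and overlapping neighbours. *Itpr1* in cerebellum, *Scn2a* against striatum and *Cep164* against prefrontal cortex in WT mice, and the marker genes were named after their values were seen.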

Additional observations from a re-analysis of the deposited data

How the results depend on the processing

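The count of members called for KI against WT and for the difference of the KI effect between regions was 0 under every alternative run, and the WT counts for cerebellum against striatum were 7 in all 19 omissions of a library and 4 to 6 for cerebellum against prefrontal cortex. For striatum against prefrontal cortex they ran from 3 to 6. The replicate block changed none of these counts beyond 1.5 times, but under it the adjusted p was 0.0536 for *Samd9l* in cerebellum, 0.0520 for *Atxn10* between WT cerebellum and prefrontal cortex and 0.0516 for *Atxn1* between WT striatum and prefrontal cortex, and 0.0412 for *Htt* in the last comparison. A block of genotype and number over all regions gave 0.0553 for *Atxn1* there, and the block over striatum and prefrontal cortex alone, where the numbers pair, changed no call. With no filter on low counts the adjusted p was 0.0688 for *Atxn10* and 0.0868 for *Atxn1* in those comparisons, and without both libraries with choroid plexus transcripts it was 0.110 for *Atxn10*. Over all genes DESeq2 called more than edgeR for KI against WT, with 336 against 140 in cerebellum, 214 against 98 in striatum, 52 against 18 in prefrontal cortex and 440 against 228 on average, and for differences between regions with 50 against 2, 32 against 3 and 12 against 0.

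Signs changed only for members with small KI or regional differences, and the cause was not tested. With the sex term the KI changes were 0.04 (*Atxn7*, cerebellum), 0.03 (*Atxn7*, striatum) and -0.02 (*Atn1*, striatum), and with no filter 0.00 (*Atn1*, average). Without both libraries with choroid plexus transcripts they were 0.03 (*Atxn3*) and 0.13 (*Atxn7*) in cerebellum, and differences between regions were 0.06 (*Atxn1*, cerebellum minus striatum) and 0.00 (*Atxn3*, cerebellum minus prefrontal cortex). Under the replicate block and the block of genotype and number, cerebellum minus striatum was -0.07 and -0.06 (*Atxn7*) and, by genotype and number, -0.01 (*Atxn3*), and cerebellum minus prefrontal cortex was -0.08 in both (*Htt*). With each library left out, the KI change ranged in cerebellum from -0.09 to 0.03 (*Atxn3*), -0.13 to 0.13 (*Atxn7*) and -0.14 to 0.01 (*Htt*), in striatum from -0.11 to 0.01 (*Atxn2*), -0.09 to 0.02 (*Atxn7*), -0.04 to 0.12 (*Atn1*) and -0.02 to 0.08 (*Htt*), in prefrontal cortex from -0.06 to 0.16 (*Atxn3*), -0.15 to 0.03 (*Htt*) and -0.16 to 0.03 (*Ttbk2*), and on average from -0.08 to 0.00 (*Atxn3*), -0.03 to 0.03 (*Atn1*) and -0.06 to 0.01 (*Htt*). The difference between regions ranged for cerebellum minus striatum from -0.12 to 0.09 (*Atxn1*), -0.03 to 0.15 (*Atxn3*) and -0.08 to 0.17 (*Atxn7*), for cerebellum minus prefrontal cortex from -0.21 to 0.01 (*Atxn3*) and -0.08 to 0.11 (*Htt*), and for striatum minus prefrontal cortex from -0.15 to 0.04 (*Atxn10*) and 0.00 to 0.18 (*Htt*). Between WT regions it ranged from -0.03 to 0.15 (*Atxn10*, cerebellum minus striatum) and -0.15 to 0.10 (*Atxn7*, striatum minus prefrontal cortex). With 3 or 4 libraries a group, KI changes smaller than the confidence intervals given above could not be told from 0.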
